A study of Mus musculus with 40 samples.

Results

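The 46 genes described here act in mitosis and cytokinesis, the steps in which a cell separates its duplicated chromosomes and then divides. They were chosen by symbol for their known roles, and all 46 were found among the 23304 symbols of the table. Expression had been measured by RNA sequencing as FPKM (fragments per kilobase of transcript, scaled to the library's mapped fragments) in 40 mouse libraries, 10 groups of 4. Ear skin and sorted mast cells came from MrgprdDTR mice, with the allele Gt(ROSA)26Sortm1(HBEGF)Awai (strain C57BL/6) crossed to Mrgprdtm1.1(cre)And (strain B6.129S1(Cg)), and from MrgprdCre mice with Mrgprdtm1.1(cre)And alone. Both carry Cre at the Mrgprd locus, which is active in a class of skin sensory neurons, and only the DTR mice carry the Cre-dependent diphtheria toxin receptor at ROSA26. The DTR samples are labelled with diphtheria toxin (DT) given intraperitoneally plus acetone and olive oil (4:1). The Cre samples are labelled with acetone and olive oil alone, while the protocol text gives toxin to both genotypes for several weeks, so the toxin status of the Cre mice is unsettled. Ears of C57BL/6J mice received 50 mM β-alanine (β-ala), an agonist of the MRGPRD receptor, or PBS once a day. Peritoneal mast cells of C57BL/6J mice were cultured for 6 h in glutamate-free Tyrode's buffer with 4 mM glutamate or vehicle, or for 48 h with 50 uM NS102, a glutamate receptor antagonist, or vehicle. The medium of the 48 h cultures and the ages of the mice are not given in the sources used here, and nothing states that the 4 libraries of a group came from separate animals or cultures, so the p-values measure the spread between these libraries.

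The labelled cell types were checked against their markers. The sum of 10 mast cell genes lay between 9624 and 94581 FPKM in the sorted and cultured libraries and between 5.08 and 258.8 FPKM in skin. The sum of 7 basal keratinocyte genes was at most 12.4 FPKM in sorted cells and at most 1.61 FPKM in cultured cells, against at least 4993 FPKM in skin, which is labelled epidermal although the protocol describes whole ears. Mrgprd, the gene whose neurons were targeted, reached at most 0.158 FPKM in any library, so its level could not check the ablation. Grik2, a kainate receptor subunit and known target of NS102, reached at most 1.15 FPKM, in sorted DTR cells. Total FPKM per library ranged from 117574 to 508485, and sequencing depth is unknown.

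Entry into mitosis depends on cyclin B bound to the kinase CDK1, helped by the Polo-like kinase PLK1 and the Aurora kinases. Kinetochore proteins tie chromosomes to the spindle, checkpoint kinases delay anaphase until all are tied, and the anaphase-promoting complex with CDC20 and UBE2C then degrades securin and the cyclins. Kinesins and the centralspindlin complex build the midzone where the cell is cut. The transcripts of most of these proteins peak together in the G2 and M phases, and their promoters often hold a cell cycle genes homology region (CHR; TTTGAA or TTTAAA), bound by the DREAM and MuvB complexes, near CCAAT boxes, bound by NF-Y. Mast cells of tissues seldom divide, whereas basal keratinocytes, hair follicle cells and mast cells in culture with growth factors do.

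Promoters were read from RefSeq (build GRCm38.p6) as 300 bases, 250 before and 50 after each gene's annotated start, and 38 of the 46 members were matched. TTTGAA on either strand was found in 30 of the 38 (78.9%), against 20.2% of 27025 genes. TTTAAA was found in 9 of the 38 (23.7%, against 14.9% of all genes) and CCAAT on either strand in 30 (78.9%, against 41.1%). A CHR form together with CCAAT stood in 29 of the 38 (76.3%), against 12.2% of all genes, and no match of one motif overlaps one of another in the stretches printed here. The following 180 bases, 150 before and 30 after the start, are shown 5′ to 3′ on the gene's strand for 6 members on which the comparisons below turn, with each match in capitals (TTCAAA is the reverse complement of TTTGAA). Ccnb2, Cdc20 and Ccnb1 fell with NS102 and hold a CHR form and CCAAT, at chr9:70421525-70421704 (minus strand), chr4:118437314-118437493 (minus) and chr13:100786457-100786636 (minus). Birc5, with the largest fall, has no match in the printed stretch at chr11:117849087-117849266 (plus), though TTTAAA lies in its 300 bases. Pttg1, at chr11:43425952-43426131 (minus), has none in either window and did not pass the NS102 test, and Smc2, at chr4:52439071-52439250 (plus), rose with NS102.
Ccnb2: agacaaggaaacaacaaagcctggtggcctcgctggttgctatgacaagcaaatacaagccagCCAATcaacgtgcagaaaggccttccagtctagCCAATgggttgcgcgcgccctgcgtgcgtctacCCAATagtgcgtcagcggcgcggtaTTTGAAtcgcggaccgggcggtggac
Cdc20: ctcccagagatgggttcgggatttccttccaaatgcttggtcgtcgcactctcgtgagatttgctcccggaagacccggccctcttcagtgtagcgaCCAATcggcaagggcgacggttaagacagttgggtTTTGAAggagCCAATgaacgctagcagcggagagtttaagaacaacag
Ccnb1: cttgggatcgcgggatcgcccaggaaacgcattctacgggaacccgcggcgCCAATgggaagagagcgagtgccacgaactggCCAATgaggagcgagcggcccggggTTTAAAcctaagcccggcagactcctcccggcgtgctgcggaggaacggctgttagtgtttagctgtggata
Birc5: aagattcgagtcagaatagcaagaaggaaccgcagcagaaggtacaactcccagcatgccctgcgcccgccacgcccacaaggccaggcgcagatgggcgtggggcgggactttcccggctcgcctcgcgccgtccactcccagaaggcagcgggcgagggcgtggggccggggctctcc
Pttg1: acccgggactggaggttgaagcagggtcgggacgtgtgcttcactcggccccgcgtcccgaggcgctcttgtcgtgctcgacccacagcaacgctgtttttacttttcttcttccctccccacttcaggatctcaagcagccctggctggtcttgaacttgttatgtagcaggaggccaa
Smc2: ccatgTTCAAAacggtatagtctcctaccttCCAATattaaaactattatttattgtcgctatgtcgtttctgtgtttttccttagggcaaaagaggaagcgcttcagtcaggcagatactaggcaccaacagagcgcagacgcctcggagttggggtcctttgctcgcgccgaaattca

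The members differed in summed FPKM between skin, sorted mast cells and cultured mast cells. Their summed FPKM was 397 ± 26.3 in DTR skin, 364 ± 10.5 in Cre skin, 400 ± 22.1 in β-ala skin and 457 ± 53.3 in PBS skin (SD, n = 4 libraries here and throughout). Sorted cells had 141 ± 29.1 in DTR and 55.5 ± 8.07 in Cre mice. Cultured cells had 560 ± 21.3 after 6 h with glutamate and 602 ± 18.4 after 6 h with vehicle, and 86.5 ± 4.78 after 48 h with NS102 and 188 ± 9.71 after 48 h with vehicle. Pttg1 (securin, which holds the cohesin-cutting protease in check) and Stmn1 (stathmin, a microtubule-destabilising protein of many cell types) made up much of the low sums. Without these members the sums were 63.3 FPKM in sorted DTR and 22.9 FPKM in sorted Cre cells, and 23.6 FPKM with NS102 and 98.9 FPKM with its vehicle. Library totals differed too, so the 46 members were also taken as a mean share of total FPKM. This share was 0.0936% in sorted DTR cells, close to 0.0915% in DTR skin and 0.0912% in PBS skin. It was 0.0297% in sorted Cre cells and 0.0805% in Cre skin. In culture it was 0.0235% with NS102 and 0.0463% with its vehicle, and 0.130% with glutamate and 0.157% with its vehicle.

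**Figure D1:**
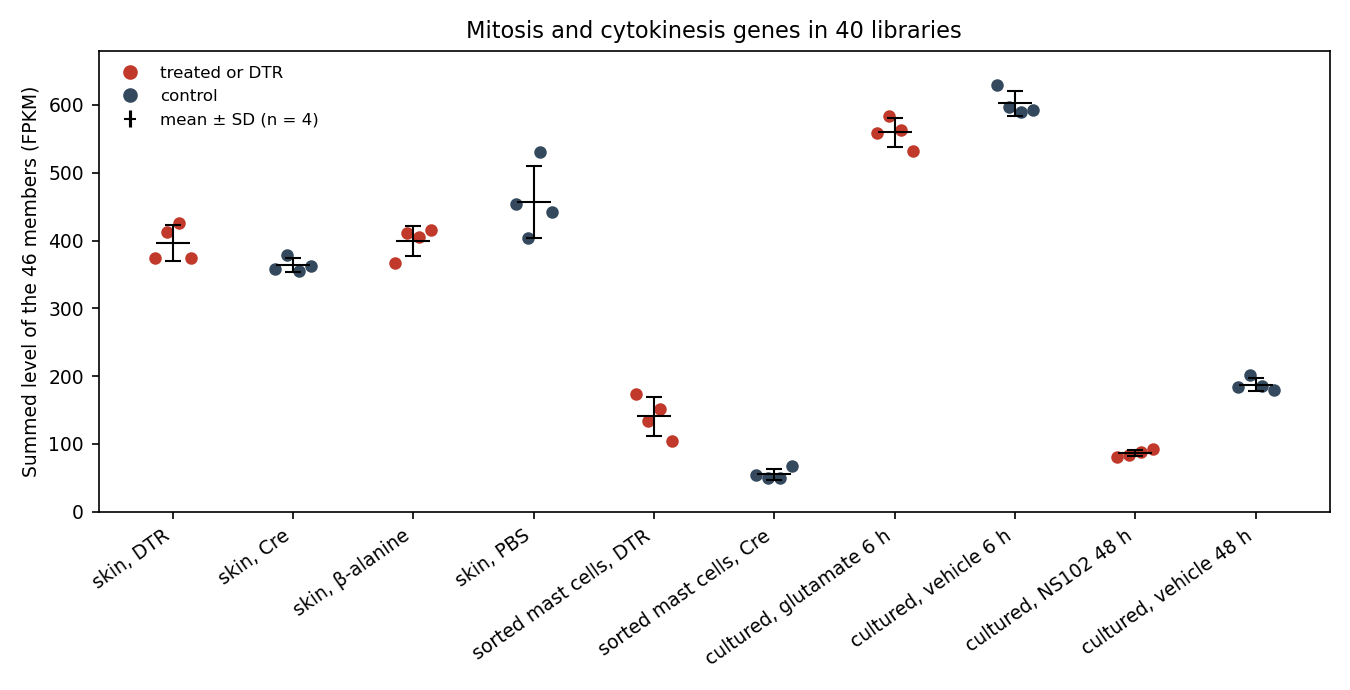
Summed FPKM of the 46 members in each of the 40 libraries, by group; each point is a library, and bars give the mean ± SD of 4. The 4 sorted Cre libraries (50.0 to 67.3 FPKM) and the 4 NS102 libraries (81.5 to 92.6 FPKM) are the lowest groups, and the 8 cultures of 6 h are the highest.

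The number of members with a group mean of at least 1 FPKM did not rank the groups as the summed FPKM did. By this number all 4 skin groups stood above the cultures. It was 46 of 46 in DTR and PBS skin and 45 in Cre and β-ala skin, where Bub1, a checkpoint kinase, was the lowest member at 0.956 and 0.919 FPKM. In sorted cells it was 23 in DTR and 5 in Cre mice. In culture it was 34 with glutamate and 40 with its vehicle, and 7 with NS102 and 23 with its vehicle. FPKM is scaled to transcript length, but levels in culture still went with length, so the order of members within a group is a description. Stmn1 was the highest member in all 4 skin groups (72.2 to 90.4 FPKM), in sorted DTR cells and in 6 h vehicle cultures (135 FPKM). Pttg1 was the highest in sorted Cre cells (27.5 FPKM) and in both 48 h groups, and Cenpa, the centromeric histone H3 variant, in glutamate cultures (119 FPKM).

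**Figure D2:**
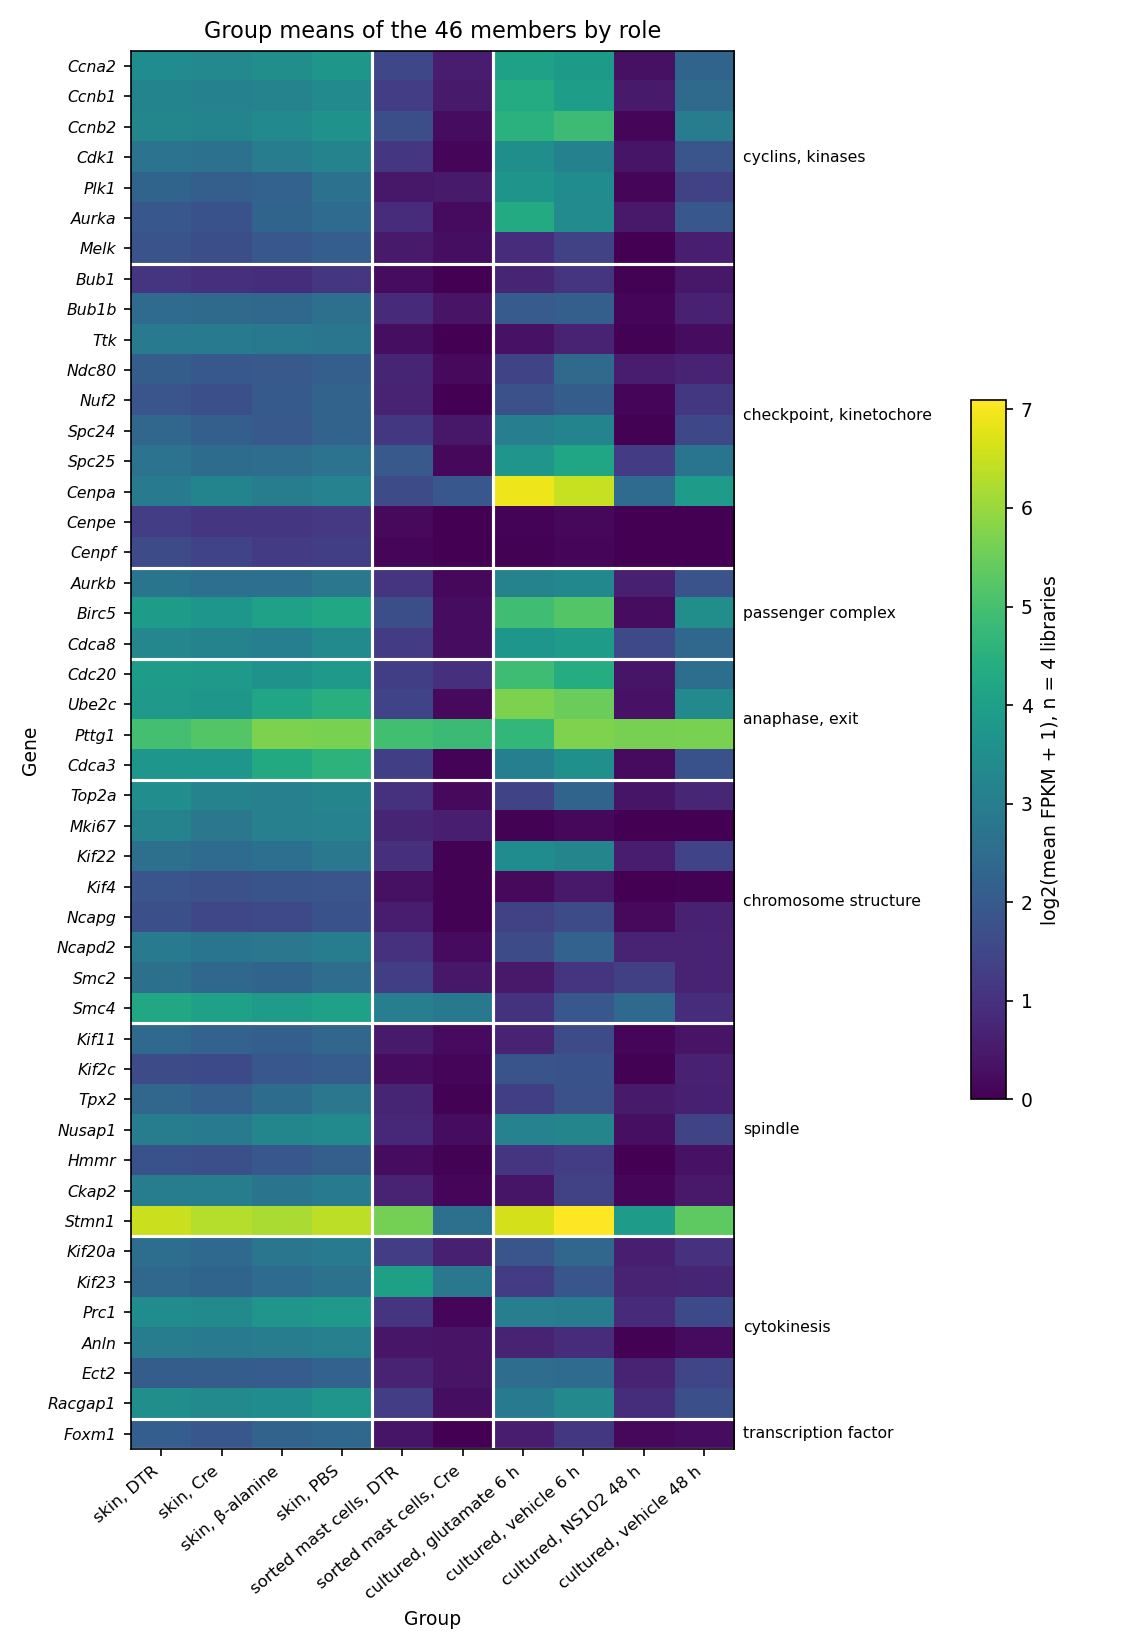
Mean FPKM of each member in each group (4 libraries each) on a log2(FPKM + 1) colour scale, members ordered by role. Rows are nearly even across the 4 skin groups, while Stmn1, Pttg1 and Kif23 stay visible in sorted cells and most other rows are near 0 in sorted Cre cells and NS102 cultures.

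Most members were lower with NS102 in cultured mast cells. In a limma fit without a filter on low values, 34 of the 46 fell, 2 rose and 10 did not pass an adjusted p of 0.05, where 24.7% of all 15280 genes fitted fell and 23.7% rose. The median log2 change of the 46 was -0.59. The same 34 and 2 members were also those whose 4 NS102 libraries all lay below or all lay above the 4 vehicle libraries, where 23.5% of 15280 genes with any value above 0 lay all below and 22.6% all above. Fold changes here are on the log2(FPKM + 1) scale, which understates the change of genes near 0. With a filter of at least 1 FPKM in 4 libraries, 25 members were fitted, 22 fell, 2 rose and Pttg1 did not pass, against 39.7% falling and 30.8% rising of 8373 genes. Of the 25, 17 had no NS102 library at 1 FPKM and passed the filter only through vehicle libraries, so they had to differ and that count is a description. In the other direction, Smc2 had no vehicle library at 1 FPKM and passed only through NS102 libraries, so it had to differ as well.

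The members grouped as mitotic cyclins and kinases, Melk among them, fell without exception, 7 of 7 in the unfiltered fit. Ccnb2 (cyclin B2, mm9 chr9:70255495-70269361) stood at 0.0188, 0.0944, 0.0186 and 0.133 FPKM in NS102 cultures, against 6.07, 8.33, 7.42 and 6.54 FPKM in vehicle cultures. No library of one group came near the other. Its log2 change was -2.92 with a standard error of 0.093 (adjusted p = 4.7e-10 with the filter). Ccnb2 passed that filter only through vehicle libraries, so this p-value is a description. Cyclin A2 (Ccna2) averaged 0.239 ± 0.0732 FPKM with NS102 and 3.86 ± 0.497 FPKM with vehicle, and cyclin B1 (Ccnb1) 0.439 ± 0.0685 and 4.52 ± 0.438 FPKM in the same order. The kinase Cdk1 was at 0.329 ± 0.126 FPKM with NS102 and 2.69 ± 0.421 FPKM with vehicle. Plk1 was at 0.0623 ± 0.0152 FPKM with NS102 and 1.56 ± 0.0794 FPKM with vehicle. Aurora kinase A (Aurka) was at 0.412 ± 0.0923 FPKM with NS102 and 2.78 ± 0.529 FPKM with vehicle.

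All 3 members of the chromosomal passenger complex, which corrects faulty kinetochore attachments, fell. Birc5 (survivin, chr11:117710550-117717057) was at 0.0688, 0.324, 0.0693 and 0.212 FPKM with NS102, against 8.83, 11.3, 9.50 and 11.4 FPKM with vehicle. This was the largest change of a member, -3.27 on the log2 scale (standard error 0.10, adjusted p = 3.9e-10 with the filter). Birc5 too passed the filter only through vehicle libraries, so its p-value is a description. Aurkb, the kinase of the complex, averaged 0.530 ± 0.0462 FPKM with NS102 and 2.49 ± 0.285 FPKM with vehicle, and Cdca8 (borealin) 1.97 ± 0.245 FPKM with NS102 and 4.31 ± 0.600 FPKM with vehicle. Of the 4 members grouped under anaphase and mitotic exit (Cdc20, Ube2c, Pttg1 and Cdca3), 3 fell. Ube2c, the ubiquitin-conjugating enzyme of the anaphase-promoting complex (chr2:164595428-164598402), was at 0.146, 0.433, 0.333 and 0.188 FPKM with NS102, against 8.32, 11.1, 9.49 and 9.45 FPKM with vehicle. Cdc20, its activator (chr4:118105505-118109948), averaged 0.326 ± 0.0857 FPKM with NS102 and 4.91 ± 0.732 FPKM with vehicle. Pttg1 stood apart at 46.6, 49.2, 47.6 and 51.8 FPKM with NS102, against 52.6, 47.5, 48.0 and 49.6 FPKM with vehicle, and its groups overlapped (log2 change -0.02, adjusted p = 0.78).

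Kinetochore, spindle and cytokinesis members fell in most cases. Of 10 checkpoint and kinetochore genes 7 fell, among them Spc24, an NDC80 complex subunit (0.0306 ± 0.0357 FPKM with NS102 and 1.89 ± 0.255 FPKM with vehicle). Cenpa (chr5:30969274-30977199) fell to 4.58 ± 0.715 FPKM with NS102, against 14.3 ± 1.84 FPKM with vehicle. The NDC80 subunit Ndc80 was at 0.446 and 0.591 FPKM and did not pass (adjusted p = 0.055 without a filter). Of 7 spindle genes 6 fell, as in Stmn1 (chr4:134024234-134029758), with 13.9, 13.3, 15.4 and 14.2 FPKM in NS102 cultures against 39.2, 43, 38.5 and 36.1 FPKM in vehicle cultures. The spindle assembly factor Tpx2 was at 0.430 ± 0.110 and 0.537 ± 0.123 FPKM and did not pass. Of 6 cytokinesis genes 5 fell, with Prc1, which bundles midzone microtubules, at 0.848 ± 0.126 FPKM with NS102 and 2.0 ± 0.219 FPKM with vehicle. Kif23, the centralspindlin kinesin, was at 0.647 ± 0.174 and 0.655 ± 0.0503 FPKM and did not pass.

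The chromosome structure genes were divided, with 3 falling, 2 rising and 3 not passing of 8. Smc4 (chr3:68808893-68838545), a core condensin subunit, was at 3.31, 3.01, 5.51 and 5.67 FPKM with NS102, against 1.10, 0.667, 0.816 and 0.940 FPKM with vehicle. Libraries 3 and 4 with NS102 were above libraries 1 and 2, and all 4 were above vehicle (log2 change 1.48, standard error 0.16, adjusted p = 5e-06). Its partner Smc2 averaged 1.52 ± 0.370 FPKM with NS102 and 0.589 ± 0.139 FPKM with vehicle (log2 change 0.66). Smc2 passed the filter only through NS102 libraries, so its rise in the filtered fit is a description. Top2a (topoisomerase II alpha), which untangles sister chromatids, was below the filter and fell without it, at 0.323 ± 0.0925 and 0.709 ± 0.0939 FPKM. The condensin subunit Ncapd2 was at 0.602 ± 0.0794 and 0.630 ± 0.129 FPKM and did not pass. The 22 falls and 2 rises of the filtered fit were called under each of 4 scalings of the libraries. The scalings do not lift the limit that the filter sets on these counts.

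**Figure D3:**
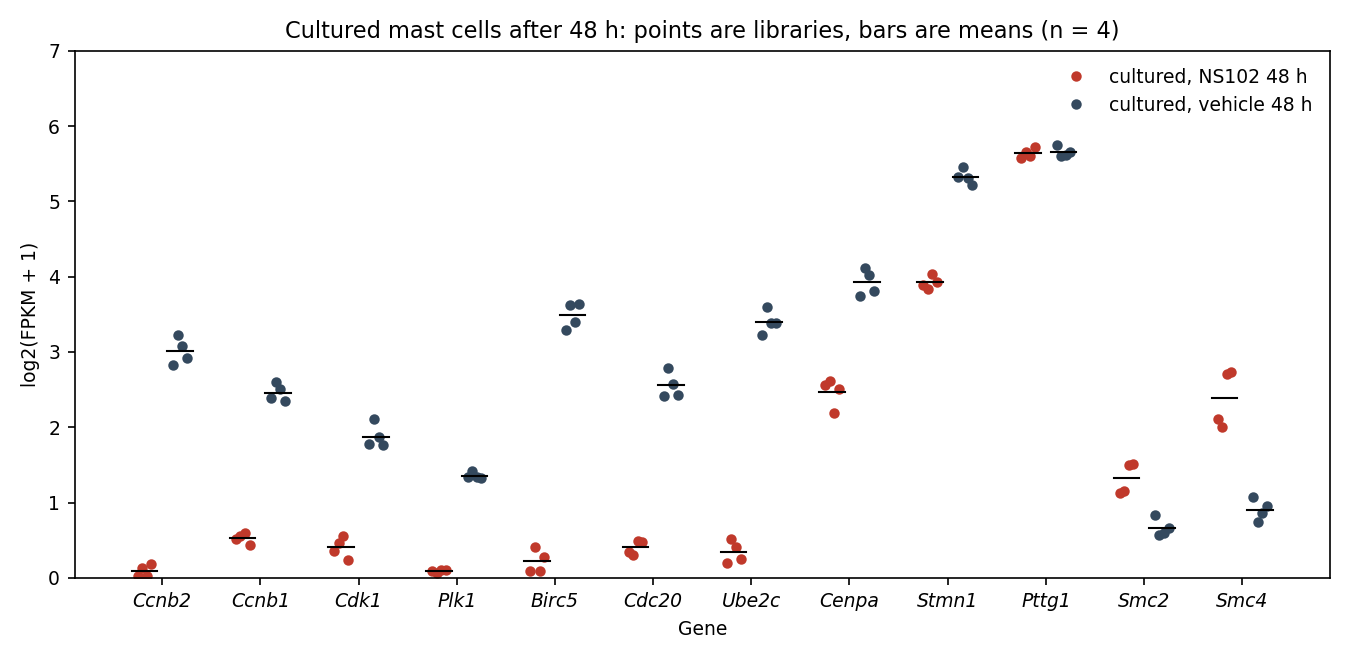
Levels of 12 members as log2(FPKM + 1) in the 4 NS102 and the 4 vehicle cultures of 48 h; each point is a library and each bar the mean of 4. Ccnb2, Birc5, Ube2c and Cdc20 lie near 0 with NS102 and far above it with vehicle, Pttg1 overlaps, and Smc4 and Smc2 lie higher with NS102.

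Other cell cycle genes were taken from lists of the same kind and tested with the filter, where 39.7% of 8373 genes fell and 30.8% rose. Of 19 replication genes tested 13 fell and 1 rose, with Rrm2 (ribonucleotide reductase) at 0.354 ± 0.0563 FPKM with NS102 and 5.49 ± 0.957 FPKM with vehicle, and Tk1 (thymidine kinase) at 0.0223 ± 0.0257 and 1.64 ± 0.210 FPKM. Rrm2 and Tk1 passed the filter only through vehicle libraries, so they had to differ. Of 33 further mitosis genes tested 19 fell and 10 rose. Among them Pbk, a mitotic kinase, averaged 0.0549 ± 0.0194 FPKM with NS102 and 2.50 ± 0.488 FPKM with vehicle. It too passed the filter only through vehicle libraries. The counts of replication genes and of further mitosis genes hold genes that had to differ, so they are descriptions. The CDK-binding subunit Cks1b was at 8.54 ± 1.18 FPKM with NS102 and 32.7 ± 4.91 FPKM with vehicle. Of 18 cell cycle inhibitors and DREAM genes tested, 5 rose and 7 fell. The CDK inhibitor Cdkn1a (p21) rose to 178 ± 2.21 FPKM with NS102, against 108 ± 2.23 FPKM with vehicle, and Cdkn2b (p15) to 6.87 ± 0.486 FPKM, against 2.77 ± 0.483 FPKM. The CDK inhibitor Cdkn2c (p18) fell to 3.93 ± 0.414 FPKM with NS102, against 8.85 ± 0.832 FPKM with vehicle, and cyclin G1 (Ccng1) to 23.5 ± 1.61 FPKM, against 44.1 ± 4.43 FPKM. Summed mast cell genes were at 70254 to 82627 FPKM with NS102 and 65623 to 68263 FPKM with vehicle. In bulk RNA of this kind, fewer cells in mitosis and less of these RNAs per cell cannot be told apart. Among the 30 matched members with TTTGAA, 23 fell, 6 did not pass and 1 rose in the unfiltered fit, and among the 8 without it 6 fell and 2 did not pass.

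The 2 vehicle groups, 48 h and 6 h, were not handled alike (buffer against a medium that is not stated) and were set side by side without a test. All 48 h libraries lay below all 6 h libraries for 45 of the 46 members, against 27.7% of 15434 genes with any value above 0, and Pttg1 overlapped, at 49.4 and 51.4 FPKM. Ccnb2 averaged 7.09 FPKM at 48 h and 28 FPKM at 6 h, and Birc5 10.3 and 35.8 FPKM. The median log2 difference of 48 h minus 6 h was -1.37 over the members and -0.03 over 8711 genes. NS102 was therefore read only against its own 48 h vehicle.

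Glutamate changed the members in both directions. Without a filter 9 of 46 rose and 28 fell, where 10.8% of 15469 genes rose and 45.5% fell. With the filter 38 were fitted, 9 rose, 21 fell and 8 did not pass, against 16.9% rising and 62.4% falling of 8297 genes. The share of members that fell was thus above that of all genes without the filter and below it with the filter. The median log2 change was -0.28 for the 38 members and -0.33 for all genes, so the counts of rises and falls depend on the scaling. After each library's median was set equal, 18 members were higher and 7 lower, and after quantile normalization 17 and 8. Called the same way under all 4 scalings were 9 that rose and 7 that fell. Ckap2, Kif11 and Foxm1 had no glutamate library at 1 FPKM and passed the filter only through vehicle libraries. They had to differ, so their falls in the filtered fit are descriptions.

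Of the 7 mitotic cyclins and kinases 5 rose. Aurka (chr2:172181695-172196006) was at 19.8, 18.9, 19.2 and 19 FPKM with glutamate, against 10.4, 10.1, 9.35 and 9.03 FPKM with vehicle. The groups were far apart, and the log2 change of 0.92 (standard error 0.053, adjusted p = 4.5e-09) was the largest rise of a member. Cdk1 averaged 10.5 ± 0.597 FPKM with glutamate and 7.74 ± 0.305 FPKM with vehicle, and Ccnb1 19.4 ± 1.25 FPKM with glutamate and 14.8 ± 0.370 FPKM with vehicle. Plk1 was at 11.7 ± 0.685 FPKM with glutamate and 9.92 ± 0.679 FPKM with vehicle, and Ccna2 at 15.7 ± 0.700 and 13.7 ± 0.459 FPKM in that order. Melk, a kinase that peaks in mitosis, and Ccnb2 fell. Melk was at 0.883 ± 0.166 FPKM with glutamate and 1.62 ± 0.236 FPKM with vehicle (log2 change -0.47, adjusted p = 0.00019), without overlap, and its change did not pass under the other 3 scalings. Ccnb2 averaged 22.1 ± 0.745 FPKM under glutamate and 28 ± 1.38 FPKM under vehicle, and its log2 change of -0.33 became 0.09 under median centring.

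The remaining 4 rises were Cdc20, Ube2c, Cenpa and Kif22. Cdc20 was at 30.8, 31.3, 27.1 and 24.4 FPKM with glutamate, against 21.3, 19.4, 19.2 and 19.3 FPKM with vehicle. Ube2c averaged 50.6 ± 3.38 FPKM with glutamate and 43.6 ± 1.91 FPKM with vehicle. Cenpa was at 115, 119, 120 and 122 FPKM with glutamate, against 87.4, 86.4, 92.0 and 88.2 FPKM with vehicle, again without overlap (log2 change 0.43, adjusted p = 8.7e-08). Kif22, a chromosome-arm kinesin, averaged 9.90 ± 0.638 FPKM with glutamate and 8.35 ± 0.768 FPKM with vehicle.

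The 7 falls under all scalings were Pttg1, Ndc80, Ckap2, Kif11, Smc4, Top2a and Kif23. Among these, Ckap2 and Kif11 passed the filter only through vehicle libraries, which the scalings do not change. Pttg1 (chr11:43233749-43239750) was at 21.9, 26.2, 26.6 and 25.2 FPKM with glutamate, against 51.9, 50.4, 50.6 and 52.7 FPKM with vehicle. This was the largest fall (log2 change -1.02, standard error 0.055, adjusted p = 2.7e-09), in a gene that acts beside Cdc20 and Ube2c at mitotic exit. Ndc80 averaged 1.75 ± 0.125 FPKM with glutamate and 4.52 ± 0.346 FPKM with vehicle. Kif11, the kinesin that pushes spindle poles apart, was at 0.634 ± 0.165 and 2.15 ± 0.460 FPKM in the same order, and Top2a at 1.75 ± 0.276 and 3.86 ± 0.691 FPKM. Smc4 was at 1.43, 1.39, 0.775 and 0.692 FPKM with glutamate, against 3.78, 3.29, 2.20 and 1.98 FPKM with vehicle, and in both groups libraries 1 and 2 were above libraries 3 and 4. Foxm1, the transcription factor of many of these genes, was at 0.481 ± 0.0570 FPKM with glutamate and 1.20 ± 0.169 FPKM with vehicle and fell, though not under every scaling. Bub1b, the BubR1 checkpoint protein, was at 3.12 ± 0.312 and 3.42 ± 0.515 FPKM and did not pass.

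Genes outside the members were also divided, where 16.9% of all 8297 genes tested rose and 62.4% fell. Of 58 further mitosis genes tested 15 rose and 27 fell, and of 23 replication genes 1 rose and 13 fell. Mlf1ip, among the 58, averaged 0.324 ± 0.0850 FPKM with glutamate and 1.51 ± 0.145 FPKM with vehicle. It passed the filter only through vehicle libraries and had to differ, so the count of the 58 is a description. Cks1b rose to 86.7 ± 3.77 FPKM with glutamate, against 49.2 ± 0.929 FPKM with vehicle. Pbk, a mitotic kinase, was at 12.3 ± 0.468 FPKM with glutamate and 5.81 ± 0.732 FPKM with vehicle, while Ska2, of the kinetochore, fell to 5.03 ± 0.238 FPKM, against 11.1 ± 0.762 FPKM. Rrm2, the replication gene that rose, was at 20.4 ± 0.594 FPKM with glutamate and 9.15 ± 0.530 FPKM with vehicle, and Rfc4, a clamp loader subunit, fell to 3.08 ± 0.0607 FPKM, against 6.52 ± 0.362 FPKM. Of 19 inhibitor and DREAM genes 8 rose and 7 fell, with Cdkn1a at 105 ± 3.40 FPKM under glutamate and 67.9 ± 1.73 FPKM under vehicle, and Tfdp1, the partner of E2F factors, at 4.6 ± 0.139 and 11.7 ± 0.953 FPKM. Summed mast cell genes were at 92653 to 94581 FPKM with glutamate and 68205 to 70854 FPKM with vehicle, and their part in the scaling of the other genes was not tested.

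**Figure D4:**
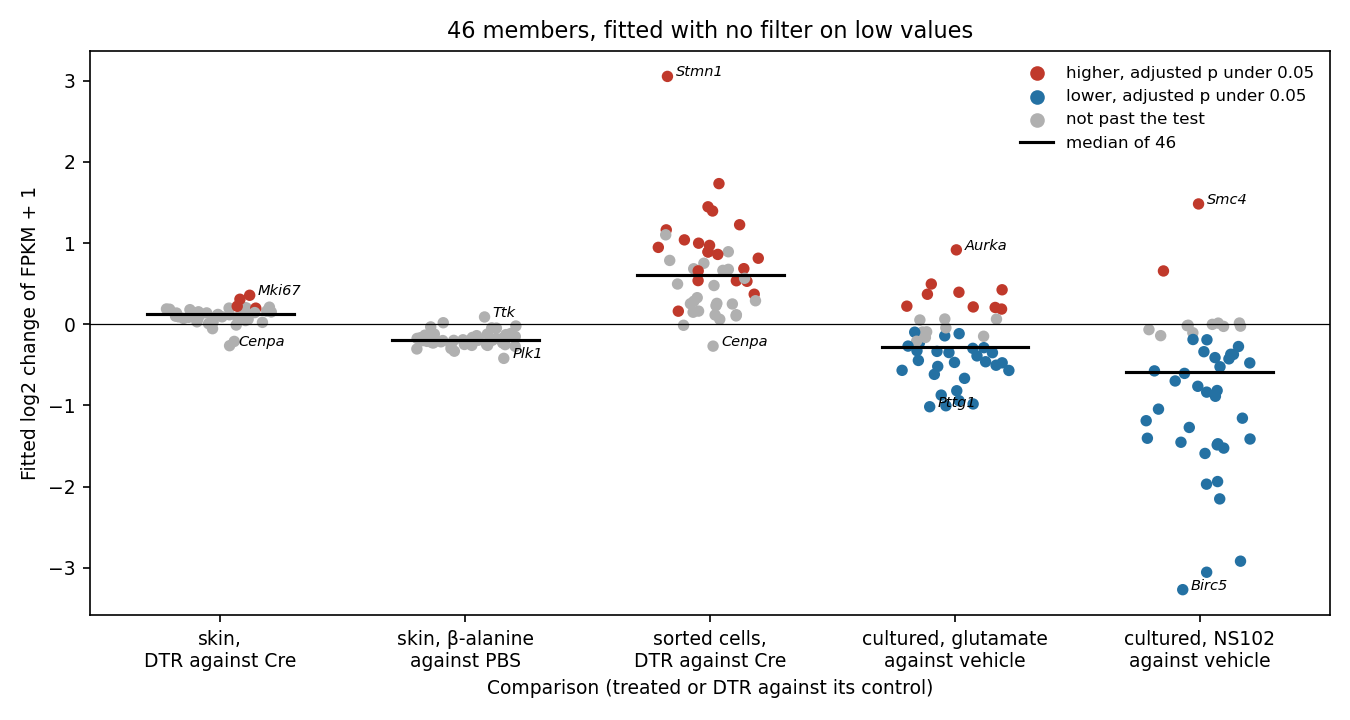
Fitted log2(FPKM + 1) changes of the 46 members in the 5 treatment comparisons, without a filter on low values; each point is a member, red and blue points passed an adjusted p of 0.05 (higher and lower), grey points did not, and each bar is the median of 46. The NS102 column reaches from -3.27 (Birc5) to 1.48 (Smc4), the sorted cell column reaches 3.05 (Stmn1), and both skin columns stay within 0.42 of 0.

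In sorted mast cells 21 of 46 members rose in DTR relative to Cre mice in the fit without a filter, 0 fell and 25 did not pass, where 5.79% of 22601 genes rose and 5.81% fell. The estimate was positive for 44 of 46 members, with a median log2 change of 0.61, and in 27 all 4 DTR libraries lay above all 4 Cre libraries, against 11.2% of all genes. With the filter 13 members were fitted, 9 rose and 0 fell, against 18.9% of 8871 genes rising and 16.9% falling. Of the 13, 6 had no Cre library at 1 FPKM and passed the filter only through DTR libraries, so they had to differ and the filtered count is a description. In it 9 had an unadjusted p under 0.05, and limma without its mean-variance trend also gave 9 rises and 0 falls. Most of these levels are close to 1 FPKM, so fitted changes depend on the value added before the logarithm. Genes listed at 0 numbered 3840 to 10093 in the sorted Cre libraries (mean 7736) and 4169 to 5438 in the sorted DTR libraries (mean 4709). Low genes may thus have been detected unequally in the groups, and the part of this in the members' rises was not tested.

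Stmn1 was the clearest case. It stood at 65.8, 36.2, 52.5 and 35.7 FPKM in sorted DTR cells, against 2.10, 6.18, 8.03 and 4.12 FPKM in sorted Cre cells. The lowest DTR library was far above the highest Cre library, and the log2 change was 3.05 (standard error 0.30, adjusted p = 1e-07). Among all tested genes this was also the largest rise. Kif23 (chr9:61765084-61794606) was at 19, 17.8, 11 and 13.1 FPKM in DTR cells, against 6.51, 6.64, 6.24 and 5.09 FPKM in Cre cells (log2 change 1.16, adjusted p = 0.00064). Racgap1, the other subunit of centralspindlin, averaged 1.45 ± 0.324 FPKM in DTR and 0.202 ± 0.231 FPKM in Cre cells, and Kif20a, a midzone kinesin, 1.46 ± 0.365 and 0.540 ± 0.300 FPKM. Racgap1 and Kif20a passed the filter only through DTR libraries. Without the filter Racgap1 rose (adjusted p = 0.011) and Kif20a did not pass (adjusted p = 0.074).

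Several low members rose as well. Ccnb2 was at 2.19, 3.00, 2.69 and 1.17 FPKM in DTR cells, against 0.118, 0.488, 0.0911 and 0.0171 FPKM in Cre cells, without overlap (log2 change 1.45). It passed the filter only through DTR libraries, so its adjusted p of 5.4e-05 with the filter is a description. Without the filter its adjusted p was 0.0069. Ccna2 averaged 1.91 ± 0.671 FPKM in DTR and 0.465 ± 0.198 FPKM in Cre cells. Spc25, of the NDC80 complex, was at 4.13, 1.47, 4.88 and 1.45 FPKM in DTR cells, against 0, 0.447, 0.0354 and 0 FPKM in Cre cells, where 2 libraries list it at 0. Smc2 averaged 1.48 ± 0.244 FPKM in DTR and 0.367 ± 0.109 FPKM in Cre cells. Ccna2, Spc25 and Smc2 also passed the filter only through DTR libraries. Without the filter they rose at adjusted p = 0.029, 0.014 and 0.013 in that order. Ccnb1 was at 1.43 ± 0.726 and 0.436 ± 0.573 FPKM and overlapped, with 1 Cre library at 1.29 FPKM. It passed with the filter (adjusted p = 0.022) and not without it (adjusted p = 0.15).

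Members that did not pass included well measured ones. Pttg1 was at 38.7, 35.3, 19.7 and 26.1 FPKM in DTR cells, against 25.4, 18.9, 21.4 and 44.4 FPKM in Cre cells. Smc4 averaged 7.12 ± 1.24 FPKM in DTR and 6.26 ± 2.77 FPKM in Cre cells, Cenpa 2.10 ± 0.165 and 2.77 ± 0.631 FPKM, and Cdc20 1.49 ± 0.479 and 0.943 ± 1.10 FPKM. The proliferation marker Mki67 was at 0.651 ± 0.190 FPKM in DTR and 0.518 ± 0.129 FPKM in Cre cells, below the filter, and did not pass without it (adjusted p = 0.66). Plk1, at 0.384 ± 0.171 and 0.427 ± 0.391 FPKM in that order, had a log2 change of -0.01 without the filter (adjusted p = 0.98). Also without the filter, Anln had 0.06 (adjusted p = 0.84) and Top2a 0.75 (adjusted p = 0.097), and neither passed.

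The sorted DTR and Cre libraries also differed in markers of other cells. Summed mast cell genes were at 17926 to 29488 FPKM in DTR and 9624 to 14463 FPKM in Cre cells, and of 10 genes 6 rose and 2 fell. Summed T and innate lymphoid genes were at 0.0617 to 0.343 FPKM in DTR cells, against 236 to 365 FPKM in Cre cells. Most of the Cre sum was Cd7, with a mean of 306 FPKM in Cre cells and 0.0314 FPKM in DTR cells. Basophil genes summed to 116 to 200 FPKM in DTR and 536 to 841 FPKM in Cre cells, macrophage and monocyte genes to 7.79 to 18.3 FPKM in DTR and 43.9 to 113 FPKM in Cre cells, and endothelial genes to 0.0837 to 0.385 FPKM in DTR and 8.48 to 14.7 FPKM in Cre cells. Only 1 of the 5 endothelial genes passed the filter, and it fell (log2 change -3.33). Fibroblast sums overlapped, at 1.98 to 126 FPKM in DTR and 1.64 to 380 FPKM in Cre cells. Erythroid and neutrophil sums reached 664 and 208 FPKM in Cre cells, against Cre medians of 1.03 and 0.113 FPKM. The part of this difference in the members' levels was not tested. Sorted DTR libraries 3 and 4 had the lowest total FPKM of the series, and without them 8 members rose and 0 fell.

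Replication genes moved in the same direction with the filter, 11 of 16 tested rising and 0 falling, where 18.9% of 8871 genes rose and 16.9% fell. Mcm2 and Mcm3, subunits of the replicative helicase, averaged 3.76 ± 1.23 and 10.6 ± 3.18 FPKM in DTR cells, against 0.641 ± 0.439 and 2.77 ± 1.34 FPKM in Cre cells. Mcm2 had no Cre library at 1 FPKM and passed the filter only through DTR libraries, so it had to differ. The filtered count of replication genes is therefore a description. Of 30 further mitosis genes 6 rose and 2 fell. Wee1, a kinase that holds CDK1 inactive, was at 6.96 ± 1.04 FPKM in DTR and 2.59 ± 0.614 FPKM in Cre cells, and Cks2, a CDK-binding subunit, at 26.7 ± 5.64 and 115 ± 13.1 FPKM. Of 17 inhibitor and DREAM genes 2 rose and 6 fell. The antiproliferative gene Btg2 was at 0.738 ± 0.569 FPKM in DTR and 40.6 ± 17 FPKM in Cre cells, Btg1 at 7.35 ± 3.38 and 57.7 ± 8.46 FPKM, and the CDK inhibitor Cdkn1b (p27) at 1.77 ± 0.401 and 5.11 ± 0.644 FPKM.

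In whole ear skin few members differed between DTR and Cre mice. All 46 passed the filter, 7 rose, 2 fell and 37 did not pass, where 7.38% of 12607 genes rose and 6.25% fell. Without a filter 4 rose and 0 fell, against 3.56% and 2.78% of 18874 genes. The estimate was positive for 42 members, with a median log2 change of 0.13 against 0.01 for all genes. Among the 8 chromosome structure genes 4 rose. Mki67 was at 7.40, 8.54, 9.06 and 7.33 FPKM in DTR skin, against 5.88, 6.55, 6.38 and 5.52 FPKM in Cre skin. The groups did not overlap, and this was the largest change, 0.36 on the log2 scale (standard error 0.074, adjusted p = 0.015). Top2a averaged 10.2 ± 0.467 FPKM in DTR and 8.03 ± 0.741 FPKM in Cre skin, and Smc4 18 ± 1.06 and 15.5 ± 1.05 FPKM. Stmn1 was at 90.4 ± 6.17 FPKM in DTR and 77.3 ± 2.23 FPKM in Cre skin, and Kif11 at 4.38 ± 0.206 and 3.72 ± 0.170 FPKM. The other 2 rises were Smc2 and Spc25.

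The 2 falls in skin were Cenpa and Pttg1. Cenpa was at 5.55, 7.23, 7.38 and 6.83 FPKM in DTR skin, against 8.37, 8.16, 8.03 and 8.48 FPKM in Cre skin (log2 change -0.26, adjusted p = 0.042). Pttg1 averaged 30.5 ± 2.14 FPKM in DTR and 35.5 ± 1.99 FPKM in Cre skin (adjusted p = 0.038). The cyclin and kinase members did not pass, 0 of 7, with Ccnb1 at 8.22 ± 0.872 and 7.75 ± 0.563 FPKM and Plk1 at 3.92 ± 0.270 and 3.39 ± 0.185 FPKM. The counts changed when single libraries were left out. The rises numbered 4 without DTR library 1, 2 without DTR library 2 or 3, and 3 without Cre library 3 or 4, and the falls numbered 0 or 1 with any one library left out. Mki67, Top2a and Stmn1 rose and Cenpa fell under all 4 scalings.

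Of 28 replication genes tested in skin, 13 rose and 0 fell, among them Cdt1, a licensing factor (4.34 ± 0.24 FPKM in DTR and 3.18 ± 0.0809 FPKM in Cre skin), and Mcm2 (5.62 ± 0.515 and 3.96 ± 0.206 FPKM). Of 73 further mitosis genes 7 rose and 1 fell. Of all 12607 genes tested, 7.38% rose and 6.25% fell. Other cells of the ear moved too. Summed basal keratinocyte genes were at 5483 to 5921 FPKM in DTR and 4993 to 5300 FPKM in Cre skin, adipocyte genes at 192 to 233 FPKM in DTR and 442 to 549 FPKM in Cre skin, and muscle genes at 432 to 574 FPKM in DTR and 815 to 1930 FPKM in Cre skin. Mast cell genes summed to 199 to 242 FPKM in DTR and 68.4 to 88.5 FPKM in Cre skin. The part of these shifts in the members' levels was not tested.

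After β-alanine no member passed the test in skin. By limma 0 of 46 rose and 0 fell, with 11 at an unadjusted p under 0.05, where 0.0157% of 12709 genes rose and 0.197% fell. Limma without trend and limma with library weights also gave 0, as did a fit without the filter, where 0.0105% of 19076 genes rose and 0.183% fell. The estimate was negative for 44 of 46 members, with a median log2 change of -0.19 against -0.04 for all genes. Plk1 had the largest, at 3.16, 3.99, 3.68 and 4.03 FPKM in β-ala skin, against 5.66, 4.95, 6.52 and 4.26 FPKM in PBS skin (log2 change -0.42, standard error 0.11, adjusted p = 0.28). Besides Plk1, the groups did not overlap for Ccnb2, Cdca8, Tpx2, Hmmr and Stmn1, 6 of 46 members with all β-ala libraries below all PBS libraries, against 4.49% of 19076 genes. Stmn1 was at 70.6, 77.3, 70.0 and 70.8 FPKM in β-ala skin, against 82.2, 80.4, 88.9 and 80.3 FPKM in PBS skin (adjusted p = 0.36). Ccna2 was at 7.32, 11.9, 11.7 and 10.8 FPKM in β-ala skin, against 12.2, 10.01, 16.1 and 11.9 FPKM in PBS skin, where library 3 was the highest. Without PBS library 3 the median log2 change of the members was -0.11. Of 28 replication genes 0 were called, and 13 had an unadjusted p under 0.05. Summed mast cell genes were at 5.08 to 8.47 FPKM in β-ala skin and 211 to 259 FPKM in PBS skin.

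Sorted mast cells were set against skin of the same genotype. Without a filter 44 of 46 members were lower in sorted cells, 1 (Kif23) was higher and Pttg1 did not pass, in Cre and in DTR mice alike. Of all genes 55.9% were lower and 7.42% higher in Cre mice (21779 genes), and 55.8% lower and 11.7% higher in DTR mice (22442 genes). With the filter, in Cre mice 43 of 45 members tested were lower in sorted cells, 1 was higher and Pttg1 did not pass, where 80% of 12693 genes were lower and 9.85% higher. In DTR mice 44 of 46 were lower and 1 higher, where 81.4% of 12665 genes were lower and 8.86% higher. Of the members that passed the filter, 38 of 45 in Cre mice and 18 of 46 in DTR mice had no sorted library at 1 FPKM and passed only through skin, so they had to be lower and these counts are descriptions. The median log2 difference was -2.15 over members and -1.42 over all genes in Cre mice, and -1.63 and -1.33 in DTR mice. Median centring left 27 lower and 3 higher in Cre mice, and 17 lower and 10 higher in DTR mice. Sorted cells and skin of these mice also differed in a sex marker, with Xist at 0 to 0.0281 FPKM in sorted libraries and 24.5 to 37.1 FPKM in skin libraries, so animals of unlike sex cannot be told apart from cell type here.

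Kif23 was the member that was higher in sorted cells of both genotypes, also under the other scalings. It averaged 15.2 ± 3.83 FPKM in sorted DTR cells and 4.30 ± 0.445 FPKM in DTR skin (log2 difference 1.59, adjusted p = 1.9e-06), and 6.12 ± 0.704 FPKM in sorted Cre cells, against 3.87 ± 0.233 FPKM in Cre skin (0.54, adjusted p = 0.0012). Pttg1 was at 29.96 ± 8.65 FPKM in sorted DTR cells and 30.5 ± 2.14 FPKM in DTR skin, and at 27.5 ± 11.6 FPKM in sorted Cre cells, against 35.5 ± 1.99 FPKM in Cre skin. Ube2c was at 1.70 ± 1.5 FPKM in sorted DTR cells and 13 ± 0.960 FPKM in DTR skin, and at 0.137 ± 0.252 FPKM in sorted Cre cells, against 12.4 ± 0.213 FPKM in Cre skin. Stmn1 was at 47.6 ± 14.5 FPKM in sorted DTR cells and 90.4 FPKM in DTR skin. That difference of -0.96 became 0.59 under median centring.

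Whether the DTR effect in sorted cells differed from that in skin was tested by an interaction term over 16 libraries. It was more positive in sorted cells for 19 of 46 members and more negative for 0, where 14.4% of 13153 genes were more positive and 13.3% more negative. The median interaction was 0.48 over the members and 0.05 over all genes. Stmn1 had the largest, 2.83 (standard error 0.37, adjusted p = 2.7e-05), followed by Spc25 at 1.53, Ccnb2 at 1.40, Cdca3 at 1.22 and Birc5 at 1.20. Kif23 had 1.04. Mki67, at -0.24, did not pass (adjusted p = 0.26). The count was 29 with 0.1 and 7 with 5 added before the logarithm, the last of these with 6 more positive and 1 more negative, and it was 23 without the 2 sorted DTR libraries of lowest total.

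Levels of the members in culture went with transcript length. Over the 46 members, the Spearman correlation between the longest annotated transcript and the log2(mean FPKM + 1) difference of 6 h vehicle cultures minus PBS skin was -0.65, given as a description, since all members share the same libraries. Over 12335 genes it was -0.14. The 15 members longer than 4000 nt had a median difference of -1.04 and the 31 shorter ones 0.11. Over all genes the medians were -1.46 and -1.06. Mki67 (10061 nt) was at 0.109 FPKM in 6 h vehicle cultures and 7.87 FPKM in PBS skin, and Cenpf (11130 nt), a kinetochore protein, at 0.0693 and 1.48 FPKM. Birc5 (3334 nt) was at 35.8 and 17.9 FPKM in the same order, and Ube2c (2191 nt) at 43.6 and 20.7 FPKM. The levels of long members in culture were therefore read only between cultures, where changes also went with length. For the NS102 change the correlation was 0.50 over 25 members and 0.38 over 7864 genes. The median NS102 change was -0.76 for members over 4000 nt and -1.43 for shorter ones. For the glutamate change the correlation was -0.23 over 38 members and -0.097 over 7795 genes.

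**Figure D5:**
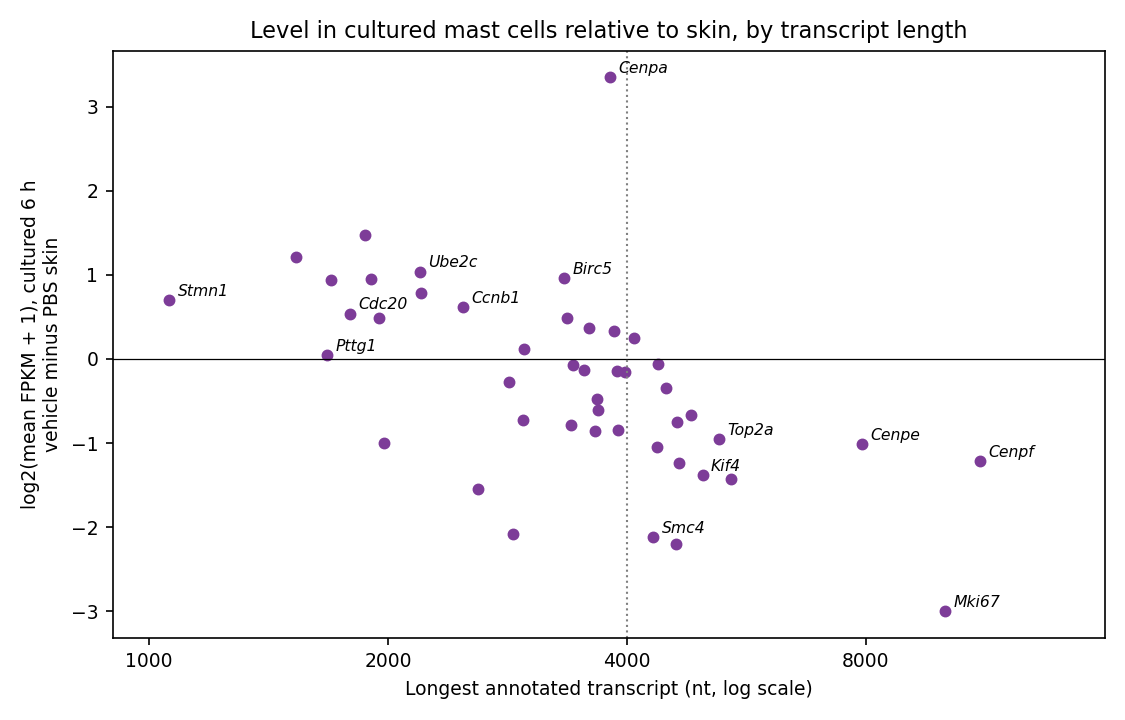
Difference in log2(mean FPKM + 1), 6 h vehicle cultures minus PBS skin (means of 4 libraries each), against the longest annotated transcript in nt on a log axis, one point per member, with a dotted line at 4000 nt. Members up to 4000 nt have a median of 0.11, and the longest, Mki67 and Cenpf, lie below 0.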

How the data were processed

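Per the submitters' processing notes, the authors used STAR and Cufflinks on genome build mm9, with no versions given. The deposited table has no unit in its header, and its values behave as FPKM: decimals summing to 117574 to 508485 per library. Scaling beyond FPKM, the annotation and any filters are not given in the sources used here, and which libraries were single or paired end is not assigned to samples. It holds 23812 rows, all 46 members once, and 0 columns were left unused.

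Values were taken as log2(FPKM + 1). A gene needed 1 FPKM or more in 4 or more of the 8 libraries of a comparison to be fitted with limma 3.58.1 (mean-variance trend, two-sided) in R 4.3.3, only on the libraries compared, and adjusted by Benjamini-Hochberg over all genes fitted. A fit without the filter gave values for all 46 members. The interaction used 16 libraries. The steps were tested on simulated data. The alternatives were pseudocounts of 0.1 and 5, filters of 0 and 5 FPKM, median centring, quantile normalization, a transcript length correction, the replicate number as a block, limma without trend, library weights, a shared spread and leaving out each library. Leaving out the 2 sorted DTR libraries of lowest total FPKM was chosen after seeing the data.

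No counts were used, so depth is unknown. Where replicates both held values under 0.1 FPKM, 55.2% to 78.0% of these genes had ratios within 0.03 (log2) of those between small integers (at most 6) at the best offset, which gave depths of 0.574 to 1.41 relative to replicate 1. Actb, Gapdh, Eef1a1, Ppia and Tpt1 were at 0 in no library.

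The members and lists were chosen with earlier results of these data known. Members were named if past a test, at the extremes, against the main direction, below the filter, or among 21 examples taken for their roles. Other genes came from the lists, at most 4 per list and comparison in order of p. Coordinates of genes are mm9, from the table. Transcript lengths are the longest annotated in GENCODE vM21, and 90.9% of rows had one. Python 3.11.15 with pandas 2.3.3, numpy 2.4.6, scipy 1.17.1 and matplotlib 3.10.9 did the other steps.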

Additional observations from a re-analysis of the deposited data

Results flagged for a closer look

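In 16 of 270 groups of 4 libraries, over 27 members, 1 library stood further from the others than Dixon's 95% criterion allows, and chance alone gives this in about 1 group in 20. In sorted Cre cells these were Aurkb, Tpx2 and Foxm1 in library 3 at 0.375, 0.0919 and 0.0583 FPKM, Ube2c and Spc25 in library 2 at 0.514 and 0.447 FPKM, and Anln, a cleavage furrow protein, in library 4 at 0.682 FPKM, each above its group. In skin they were Tpx2 (3.90 FPKM) and Stmn1 (77.3 FPKM) in β-ala libraries 1 and 2, Aurkb (4.63 FPKM) and Prc1 (15.7 FPKM) in PBS libraries 2 and 3, and Ccna2 (8.35 FPKM) and Smc2 (4.10 FPKM) in Cre libraries 3 and 4. In culture they were Bub1b (3.58 FPKM) and Tpx2 (1.09 FPKM) in glutamate libraries 2 and 4, Bub1b (0.102 FPKM) in NS102 library 3 and Cdc20 (21.3 FPKM) in 6 h vehicle library 1.

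The DTR effect was more positive in sorted cells than in skin, by the test of the difference itself on the log2(FPKM + 1) scale, for 19 members. The largest differences were those of Stmn1 (2.83), Spc25 (1.53), Ccnb2 (1.40), Cdca3 (1.22), Birc5 (1.20) and Kif23 (1.04). The others were Cdk1 (0.93), Cdca8 (0.91), Racgap1 (0.89), Ccna2 (0.85), Prc1 (0.81), Kif22 (0.76), Smc2 (0.66), Ncapd2 (0.63), Nuf2 (0.56), Kif20a (0.53), Tpx2 (0.51), Ckap2 (0.51) and Ndc80 (0.40).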

How the results depend on the processing

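Counts of members that rose or fell moved by over 1.5 times under these settings, and the cause was not tested except where a filter left fewer genes. In skin DTR against Cre the rises numbered 4 without a filter, with median centring, with the replicate block and with the length correction, 3 with quantile normalization and 2 with a shared spread. The falls there numbered 0 without a filter, with the block and with a shared spread, and 1 with the length correction. Leaving out 1 library gave 2 to 7 rises and 0 to 1 fall. β-ala skin had 1 fall with a shared spread. Sorted DTR cells had 21 rises without a filter, 2 with a filter of 5 FPKM and 8 to 10 with any 1 library left out. A shared spread could not be fitted there, as no other sorted group exists. Glutamate gave 18, 17 and 16 rises with median centring, quantile normalization and the length correction, and 7, 8 and 10 falls. A filter of 5 FPKM left 8 falls. Leaving out 1 library gave 9 rises and 20 to 22 falls. NS102 gave 34 falls without a filter, and 6 falls and 0 rises with 5 FPKM. In sorted against skin cells of Cre mice, median centring, quantile normalization and the length correction gave 3, 2 and 3 higher, the first pair 27 and 27 lower, and 5 FPKM left 20 lower. In DTR mice they gave 10, 15 and 5 higher and 17, 14 and 19 lower, and 5 FPKM left 23 lower. The interaction had 29 members with a pseudocount of 0.1, 7 with 5, and 15 to 25 with any 1 library left out.

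Some single members changed sign. For glutamate, median centring, quantile normalization and the length correction gave log2 changes of 0.27, 0.23 and 0.19 for Aurkb, 0.14, 0.12 and 0.11 for Ncapg, and 0.063, 0.054 and 0.030 for Nuf2. Centring gave 0.12 for Birc5, 0.087 for Ccnb2 and 0.023 for Racgap1, and the length correction 0.068 for Birc5. For Cenpa in sorted against skin cells the values were 0.24, 0.23 and 0.18 in Cre mice and 0.23, 0.28 and 0.057 in DTR mice, and for Stmn1 in DTR mice 0.59, 0.37 and 0.39. Over all members in these 2 comparisons, centring, quantile normalization and the length correction turned 7, 10 and 5 signs in Cre mice and 17, 22 and 14 in DTR mice. Over all called members and settings, 3168 values kept side and sign, 207 lost their call and 88 changed sign.

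In each comparison, at most 2 of 4 same-numbered pairs of libraries deviated together with a correlation over 0.1. These correlations ran from -0.162 to 0.374 in β-ala against PBS skin and from -0.247 to 0.281 in NS102 against vehicle cultures. Whether same-numbered libraries were paired was not tested. The replicate block gave 4 rises and 0 falls in DTR skin, 0 and 0 in β-ala skin, 9 and 0 in sorted DTR cells, 9 and 23 with glutamate, and 2 and 22 with NS102. It gave 1 higher and 43 lower for sorted against skin cells in Cre mice, 1 and 44 in DTR mice, and 20 members for the interaction. Depth is unknown, so members near 0, most of them in sorted Cre cells and NS102 cultures, carry no counting interval.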
